A study of Homo sapiens with 6 samples.

Results

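RELB, NFKB2, TNFAIP3, BIRC2, BIRC3 and BCL2A1 are genes of the non-canonical NF-kB branch and of NF-kB-controlled cell survival. They were taken from the deposited table by gene symbol, and all 6 had 1 row each among its 6339 rows. They had been proposed because of their difference between AI-10-49 and DMSO in these same libraries, so their values in that contrast are given here as a description, with no test. All 6 also passed the filter on low values (1 FPKM or more on average with AI-10-49, with DMSO or with both), which kept 6230 rows. ME-1, an established human acute myeloid leukaemia line that carries inv(16) and so makes the fusion protein CBFβ-SMMHC, was grown for 6 h with 1 µM AI-10-49 (3 libraries) or with DMSO, the solvent (3 libraries). AI-10-49 is a compound made to keep CBFβ-SMMHC away from its partner, the transcription factor RUNX1. All 6 libraries come from this single line and carry the fusion. No cells without inv(16) and no second time point were analysed here. Values are FPKM, which divides fragments by transcript length and by the size of the library, so levels can be compared between genes per unit of length. Total depth is unknown. The p-values measure only the spread between these libraries of 1 line.

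NF-kB transcription factors are dimers of RELA, RELB, REL and the products of NFKB1 and NFKB2. In the canonical branch, IkB proteins hold the dimers in the cytoplasm until an IkB kinase marks them for destruction. In the non-canonical branch, receptors of the TNF family such as LTBR, CD40 and BAFF receptor take away a complex of TRAF2, TRAF3 and the ubiquitin ligases cIAP1 and cIAP2 (BIRC2 and BIRC3). The kinase NIK then builds up and drives the cutting of the NFKB2 product p100 to p52, the usual partner of RELB. TNFAIP3 encodes A20, a ubiquitin-editing enzyme that brakes canonical signalling, and BCL2A1 encodes an anti-apoptotic BCL2 relative. NFKB2, RELB, TNFAIP3, BIRC3 and BCL2A1 are known as NF-kB targets themselves.

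The promoters are shown because all 6 genes were higher with AI-10-49 and because the NF-kB site is the letter pattern these factors are known to bind. RefSeq windows of 300 bases (250 before the annotated start and 50 from it on, build GRCh38.p14) were on hand for 5 of the 6 genes, in 8 windows, with RELB not among them. The authors' build was hg19, so these coordinates belong to the RefSeq windows only. The kB consensus, a pattern of 10 bases, was searched on both strands. It was found in 4 windows of 3 genes, NFKB2, TNFAIP3 and BIRC3, and each of these 4 windows held it at 2 places that do not overlap. Of all 35116 windows, 11.3% held the consensus and 0.994% held it at 2 or more such places. These 3 genes are known NF-kB targets, so such matches could be expected whatever the treatment did. The 4 windows follow with the matched bases in capitals, each read 5′ to 3′ along the gene's strand, which is the plus strand for all 3 genes.
NFKB2, middle of 3 windows (chr10:102394328-102394627, plus strand): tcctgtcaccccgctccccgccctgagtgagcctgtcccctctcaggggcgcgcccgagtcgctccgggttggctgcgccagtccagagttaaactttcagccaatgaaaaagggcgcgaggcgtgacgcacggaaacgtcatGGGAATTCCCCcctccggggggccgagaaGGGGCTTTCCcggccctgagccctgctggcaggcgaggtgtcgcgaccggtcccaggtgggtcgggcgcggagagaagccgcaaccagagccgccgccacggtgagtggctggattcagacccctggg
NFKB2, most downstream of 3 windows (chr10:102395455-102395754, plus strand): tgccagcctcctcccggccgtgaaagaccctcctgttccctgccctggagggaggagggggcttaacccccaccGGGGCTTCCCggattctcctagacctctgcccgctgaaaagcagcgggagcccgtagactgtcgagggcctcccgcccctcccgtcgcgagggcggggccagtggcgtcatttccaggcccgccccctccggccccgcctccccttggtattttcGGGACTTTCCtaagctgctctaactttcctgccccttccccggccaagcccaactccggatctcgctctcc
TNFAIP3 (chr6:137867009-137867308, plus strand): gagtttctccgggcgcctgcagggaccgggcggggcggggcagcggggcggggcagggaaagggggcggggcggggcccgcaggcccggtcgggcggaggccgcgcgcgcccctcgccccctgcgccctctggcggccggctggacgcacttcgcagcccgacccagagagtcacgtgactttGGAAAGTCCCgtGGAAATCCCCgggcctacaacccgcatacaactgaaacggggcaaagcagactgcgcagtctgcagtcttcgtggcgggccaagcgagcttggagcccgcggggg
BIRC3 (chr11:102317234-102317533, plus strand): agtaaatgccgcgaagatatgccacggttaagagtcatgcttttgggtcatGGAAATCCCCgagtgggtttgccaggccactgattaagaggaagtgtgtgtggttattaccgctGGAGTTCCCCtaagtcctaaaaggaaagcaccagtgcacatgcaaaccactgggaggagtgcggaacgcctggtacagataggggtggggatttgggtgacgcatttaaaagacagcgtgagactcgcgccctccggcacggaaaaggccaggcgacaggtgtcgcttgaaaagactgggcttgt
The matches began 107 and 78 bases before the start in the middle window of NFKB2, where 2 overlapping matches share the farther place, and 176 and 21 bases before it in the downstream window. They began 67 and 55 bases before the start of TNFAIP3 and 199 and 135 bases before that of BIRC3. The letters GGGACTTTCC stood both in the downstream NFKB2 window and, on the other strand, in that of TNFAIP3, and GGGGATTTCC stood on the other strand in both TNFAIP3 and BIRC3. No match lay within the 2 windows of BIRC2, the 1 window of BCL2A1 or the most upstream window of NFKB2, which says only that these letters are absent from those stretches. TGTGGT, the core letters of the RUNX site, stood 151 bases before the start of BIRC3 and in none of the other 7 windows, against 13.1% of all windows. CACGTG, the E-box that MYC can bind, stood 78 bases before the start of TNFAIP3 only, against 7.26% of all windows. TGACTCA, an AP-1 site, stood in none of the 8, against 4.95% of all windows. None of these sites overlapped a kB match. A match describes the sequence and does not show that a factor was bound.

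AI-10-49 replicate 2 stood apart from AI-10-49 replicates 1 and 3, most of all at high levels, and this touches the values below. Its highest value was 159 FPKM, far below the highest value of any other library. All 294 rows that averaged 100 FPKM or more in AI-10-49 replicates 1 and 3 read lower in it than in both. Its ratio to the mean of replicates 1 and 3 fell with level. The median ratio was 1.09 in rows of 5 to 10 FPKM, 1.03 at 10 to 20 and 0.923 at 20 to 40. It was 0.711 at 60 to 80 and 0.415 at 150 FPKM and more. The more abundant members therefore read lower in replicate 2. This library was kept in the means, SDs, SEs and p-values except where the text leaves it out. That ratio was 0.979 for BCL2A1, 0.928 for BIRC3, 0.902 for TNFAIP3, 0.769 for RELB, 0.727 for NFKB2 and 0.707 for BIRC2. Rows of like level (from 0.8 to 1.25 times the member's) had median ratios of 1.06, 0.935, 0.869, 0.710, 0.708 and 0.660 in the same order of genes. Of the myeloid markers listed, 8 of 12 had a row, and their summed level was 196 to 284 FPKM with AI-10-49 and 411 to 456 FPKM with DMSO. The 196 FPKM was that of AI-10-49 replicate 2. They did not all go the same way: CEBPA, KIT, CD33, AZU1, ELANE and PRTN3 were lower with AI-10-49 by the limma test and FLT3 was higher, at 14.6 ± 0.24 FPKM with AI-10-49 and 11.7 ± 0.26 FPKM with DMSO (SD, n = 3 each). SPI1, the most abundant of the 8, read 115 ± 35.7 FPKM with AI-10-49 and 154 ± 8.70 FPKM with DMSO and did not pass (SD, n = 3 each; limma adjusted p = 0.142). Its AI-10-49 libraries read 137, 73.4 and 133 FPKM, with replicate 2 lowest, all below its DMSO libraries at 154, 145 and 162 FPKM. Markers of T and NK cells (3 of 8 with a row) summed to 19.7 to 20.1 FPKM with AI-10-49 and 34.5 to 36.2 FPKM with DMSO, most of it CD3D, while CD7 was higher with AI-10-49, at 2.89 ± 0.06 FPKM against 1.83 ± 0.49 FPKM with DMSO (SD, n = 3 each). Markers of B cells (2 of 6) summed to 8.72 to 10.6 FPKM with AI-10-49 and 24.8 to 30.0 FPKM with DMSO. Those of fibroblasts and endothelium (2 of 8, PECAM1 and VWF) summed to 6.71 to 7.19 FPKM with AI-10-49 and 11.7 to 12.5 FPKM with DMSO. None of these genes was at 0 in all libraries, and the part of these shifts in the results was not tested. All 6 libraries are bulk RNA of the single line ME-1, so these marker values are RNA levels in that line. They do not count cells of other types.

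**Figure D1:**
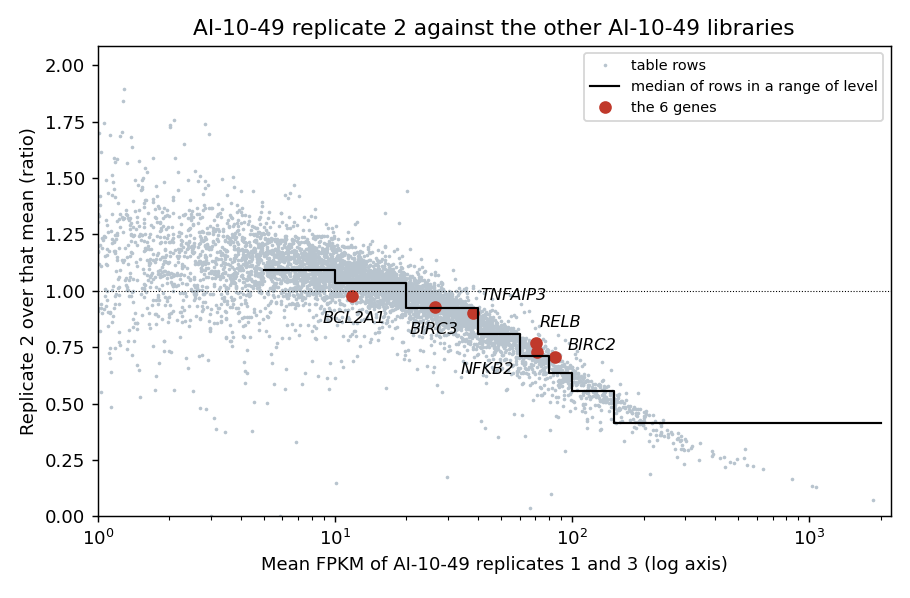
Ratio of AI-10-49 replicate 2 to the mean of AI-10-49 replicates 1 and 3 (vertical) against that mean in FPKM (horizontal, log axis), with 1 grey point per table row, the median per range of level as a black line and the 6 genes in red. The 6 genes fall with level, as the medians of all rows do, from 0.979 for BCL2A1, the least abundant, to 0.707 for BIRC2, the most abundant. RELB (0.769) and BIRC2 lie above the upper quartiles of rows of like level, 0.750 and 0.705. BCL2A1 lies below the lower quartile of such rows, 1.01.

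RELB and NFKB2, which encode the partners of the non-canonical dimer, stood at nearly the same level with AI-10-49, far above DMSO. RELB read 69.9, 54.2 and 71.0 FPKM in the AI-10-49 libraries and 7.39, 7.55 and 7.86 FPKM in the DMSO libraries. NFKB2 read 71.5, 51.4 and 70.1 FPKM with AI-10-49 and 8.83, 8.65 and 8.59 FPKM with DMSO. For each gene every AI-10-49 library lay above every DMSO library, and the low AI-10-49 value was that of replicate 2. The lowest AI-10-49 value was 6.89 times the highest DMSO value for RELB and 5.83 times for NFKB2. Group means were 65.0 ± 9.42 FPKM with AI-10-49 and 7.60 ± 0.24 FPKM with DMSO for RELB, 8.56-fold higher (SD, n = 3 each). They were 64.3 ± 11.2 FPKM with AI-10-49 and 8.69 ± 0.12 FPKM with DMSO for NFKB2, 7.41-fold higher (SD, n = 3 each). Without AI-10-49 replicate 2 the folds were 9.27 and 8.15. After 1 FPKM was added to each value, which damps differences at low levels, and log2 was taken, RELB differed by 2.93 ± 0.09 (SE) and NFKB2 by 2.74 ± 0.11 (SE). With the highest change given rank 1, RELB held rank 10 and NFKB2 rank 17 of the 6230 tested rows.

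All 6 members had groups that did not overlap, with AI-10-49 higher. Since they were chosen on this contrast, nothing is read from that count. In the table as a whole, AI-10-49 was the higher of 2 non-overlapping groups in 45.1% of tested rows and the lower in 51.2%, 96.2% in all, and 5.79% of rows had a log2 fold change above 1, as all 6 members did. The members' log2 fold changes ran from 1.08 to 2.93 with a median of 2.50, against a median of -0.28 over all tested rows.

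**Figure D2:**
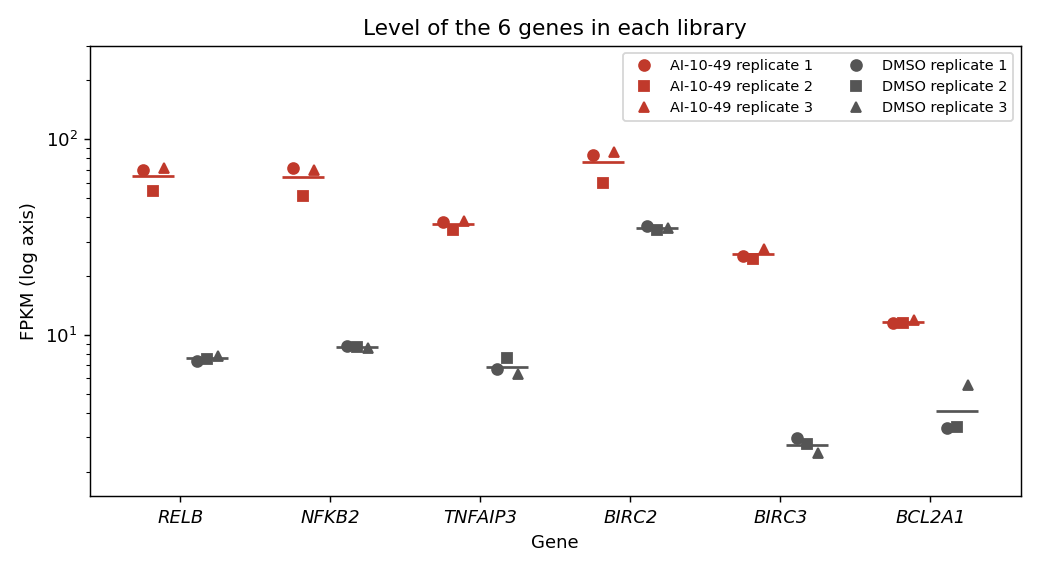
FPKM (log axis) of the 6 genes in each library, AI-10-49 in red to the left of DMSO in grey, with symbols for replicates 1, 2 and 3 and horizontal lines at the group means (n = 3). RELB and NFKB2 lie between 51.4 and 71.5 FPKM with AI-10-49 and between 7.39 and 8.83 FPKM with DMSO, and BIRC2 starts highest, at 34.5 to 35.9 FPKM with DMSO.

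The other subunit genes with a row, NFKB1 and REL, had smaller log2 fold changes. NFKB1, which encodes p105 and p50, read 78.3, 53.8 and 76.9 FPKM with AI-10-49 and 43.6, 44.6 and 43.4 FPKM with DMSO. It rose by 0.63 ± 0.14 (SE) on the log2 scale (limma adjusted p = 0.000811). REL, which encodes c-Rel, read 6.79, 7.61 and 7.27 FPKM with AI-10-49 and 4.11, 4.27 and 4.38 FPKM with DMSO, and rose by 0.65 ± 0.07 (SE, limma adjusted p = 3.03e-06). Neither group of libraries overlapped the other in these genes. RELA was not analysed here.

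The make-up of the measured subunit mRNA therefore differed between the groups. RELB and NFKB2 together made up 62.4%, 63.2% and 62.6% of the summed FPKM of RELB, NFKB2, REL and NFKB1 in the AI-10-49 libraries, against 25.4%, 24.9% and 25.6% in the DMSO libraries. NFKB1 made up 33.6% ± 1.26 of it with AI-10-49 and 68.1% ± 0.47 with DMSO (SD, n = 3 each). The summed level was 206 ± 34.0 FPKM with AI-10-49 and 64.4 ± 0.54 FPKM with DMSO (SD, n = 3 each). The ratio of NFKB2 to NFKB1, whose products are the 2 precursors that are cut to p52 and p50, was 0.914, 0.957 and 0.912 with AI-10-49 and 0.202, 0.194 and 0.198 with DMSO. AI-10-49 replicate 2 was within 1 percentage point of the other AI-10-49 libraries in the share of RELB and NFKB2 together, although it read lower in their levels. This closeness gives no separate support. RELB, NFKB2 and NFKB1 were of like level in replicates 1 and 3. Their ratios of replicate 2 to that mean were also alike, at 0.769, 0.727 and 0.693, so the share could hardly move. REL, of lower level, made up 4.56% in replicate 2, more than in either other AI-10-49 library. RELB and NFKB2 stayed close to each other, with a ratio of RELB to NFKB2 of 0.977, 1.05 and 1.01 with AI-10-49 and 0.838, 0.873 and 0.915 with DMSO. These shares rest on the contrast that chose RELB and NFKB2 and are given without a test, and mRNA shares do not show how much of each protein was made.

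**Figure D3:**
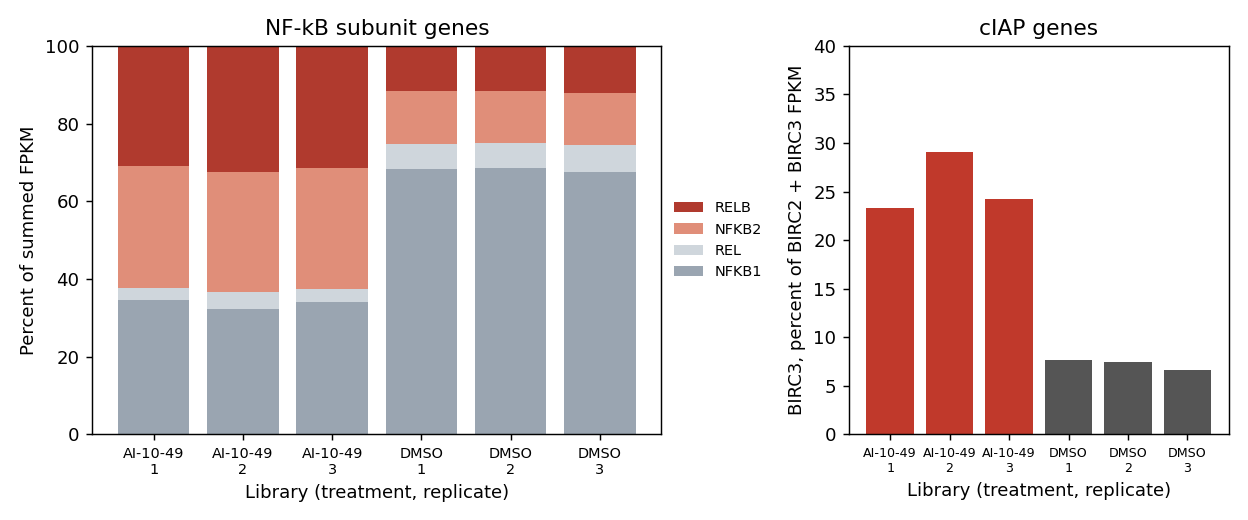
Left, percent of the summed FPKM of RELB, NFKB2, REL and NFKB1 that each gene made up in each library. Right, BIRC3 as a percent of the FPKM of BIRC2 and BIRC3. AI-10-49 libraries stand to the left of DMSO libraries. RELB and NFKB2 together fill 62.4% to 63.2% of the bar with AI-10-49 and 24.9% to 25.6% with DMSO. BIRC3 makes up 23.4% to 29.1% with AI-10-49, where 29.1% is that of replicate 2, and 6.65% to 7.66% with DMSO.

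TNFAIP3, the gene of the A20 brake, read 37.9, 34.4 and 38.3 FPKM with AI-10-49 and 6.72, 7.63 and 6.30 FPKM with DMSO. The AI-10-49 libraries lay close together, and the lowest of them was 4.50 times the highest DMSO library. The means were 36.8 ± 2.16 FPKM with AI-10-49 and 6.89 ± 0.68 FPKM with DMSO (SD, n = 3 each), 5.35-fold higher, or 2.26 ± 0.08 (SE) on the log2 scale, at rank 35. Of 7 other listed ubiquitin-editing brakes, 4 had a row and all 4 rose, where 46.2% of all tested rows were called higher. CYLD, a deubiquitinase that also restrains NF-kB signalling, read 19.8 ± 0.06 FPKM with AI-10-49 and 10.7 ± 0.40 FPKM with DMSO (SD, n = 3 each), a rise of 0.83 (limma adjusted p = 6.21e-08). TAX1BP1, ITCH and RNF11, which encode partners of A20, rose by 0.62, 0.43 and 0.31. The ratio of TNFAIP3 to CYLD was 1.92, 1.73 and 1.93 with AI-10-49 and 0.612, 0.743 and 0.577 with DMSO, so the order of these brakes by level turned round in every library.

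BIRC2 and BIRC3 encode cIAP1 and cIAP2, close relatives that lie next to each other on chromosome 11, and they differed in size of change. BIRC3 read 25.4, 24.6 and 27.5 FPKM with AI-10-49 and 2.98, 2.76 and 2.49 FPKM with DMSO. BIRC2 read 83.2, 59.8 and 86.2 FPKM with AI-10-49 and 35.9, 34.5 and 35.0 FPKM with DMSO. Neither gene's groups overlapped, and the BIRC2 libraries with AI-10-49 spread more, with replicate 2 low. BIRC3 averaged 25.8 ± 1.54 FPKM with AI-10-49 and 2.74 ± 0.24 FPKM with DMSO, 9.41-fold higher, the largest plain ratio of the 6 genes (SD, n = 3 each). BIRC2 averaged 76.4 ± 14.4 FPKM with AI-10-49 and 35.1 ± 0.70 FPKM with DMSO, 2.17-fold higher, or 2.41-fold without AI-10-49 replicate 2 (SD, n = 3 each).

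In log2(FPKM + 1) BIRC3 differed by 2.84 ± 0.07 (SE), at rank 15, and BIRC2 by 1.08 ± 0.13 (SE), at rank 287. BIRC2 nevertheless stayed the more abundant in all libraries, at 3.28, 2.44 and 3.13 times BIRC3 with AI-10-49 and 12.9 ± 1.04 times (SD, n = 3) with DMSO. BIRC3 accordingly made up 23.4%, 29.1% and 24.2% of their summed level with AI-10-49 and 7.66%, 7.41% and 6.65% with DMSO. The 29.1% is that of replicate 2, in which the more abundant BIRC2 read lower by more. Its ratio to the mean of replicates 1 and 3 was 0.707, against 0.928 for BIRC3. No run of 90 bases, the read length, was shared between the coding transcripts of any of the 6 genes and the transcripts of another gene in the GENCODE 29 annotation, and no exon of another gene overlapped theirs on either strand. Runs of 25 bases were shared between BIRC2 and BIRC3 in 65 of the 7049 runs of BIRC3.

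BCL2A1, which encodes the anti-apoptotic protein also called BFL1, was the least abundant of the 6 with AI-10-49. It read 11.49, 11.50 and 11.99 FPKM with AI-10-49 and 3.33, 3.38 and 5.54 FPKM with DMSO. The groups did not overlap, but DMSO replicate 3 stood well above the other DMSO libraries. The means were 11.7 ± 0.29 FPKM with AI-10-49 and 4.08 ± 1.26 FPKM with DMSO (SD, n = 3 each), 2.86-fold higher, or 1.34 ± 0.13 (SE) on the log2 scale, at rank 152. Without DMSO replicate 3 the log2 value was 1.54. Of 10 listed survival genes outside the members, 3 had a row of their own, and 2 of them fell, where 49.1% of all tested rows were called lower. BCL2, the founder of the family, fell by 1.15 to 27.8 ± 1.98 FPKM with AI-10-49, against 63.0 ± 2.79 FPKM with DMSO (SD, n = 3 each; limma adjusted p = 1.01e-07). BIRC5, which encodes survivin and is also a mitotic gene, fell by 0.83, and NAIP, which encodes an IAP relative that senses bacterial proteins, rose by 0.30. BCL2 remained the more abundant of the pair with BCL2A1, whose ratio to BCL2 was 0.387, 0.447 and 0.428 with AI-10-49 and 0.050, 0.055 and 0.091 with DMSO. BCL2L1, MCL1, XIAP and CFLAR were not analysed here.

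By level, the order of the 6 genes changed between treatments. With AI-10-49 it ran from BIRC2 through RELB, NFKB2, TNFAIP3 and BIRC3 to BCL2A1, and the libraries overlapped only between BIRC2, RELB and NFKB2. With DMSO it ran from BIRC2 through NFKB2, RELB, TNFAIP3 and BCL2A1 to BIRC3, and only RELB and TNFAIP3 overlapped. Among all tested rows ranked by mean level, the percentile of BIRC3 was 68.7 with AI-10-49 and 11.6 with DMSO, that of RELB 91.7 with AI-10-49 and 30.0 with DMSO, and that of BIRC2 93.8 with AI-10-49 and 76.9 with DMSO.

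Beyond the 6 members, the pathway was read from 9 lists of genes grouped by role, which hold 100 other genes. The lists were chosen with earlier results of these data known. Counts and medians of listed genes, above and below, therefore describe these genes and give no independent support for a change of the pathway. Of these, 49 had a tested row, and 37 rose, 10 fell and 2 did not pass the threshold (limma, adjusted p under 0.05 over all 6230 rows). Nearly every row of the table passes, so the share that passed says little: 95.3% of all tested rows were called, 46.2% higher and 49.1% lower. These shares are of the deposited rows only, not of all genes. The listed genes had a median log2 fold change of 0.58, against -0.28 for all tested rows. Of the 49, 12 were above a log2 fold change of 1 and 3 were below -1.

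**Figure D4:**
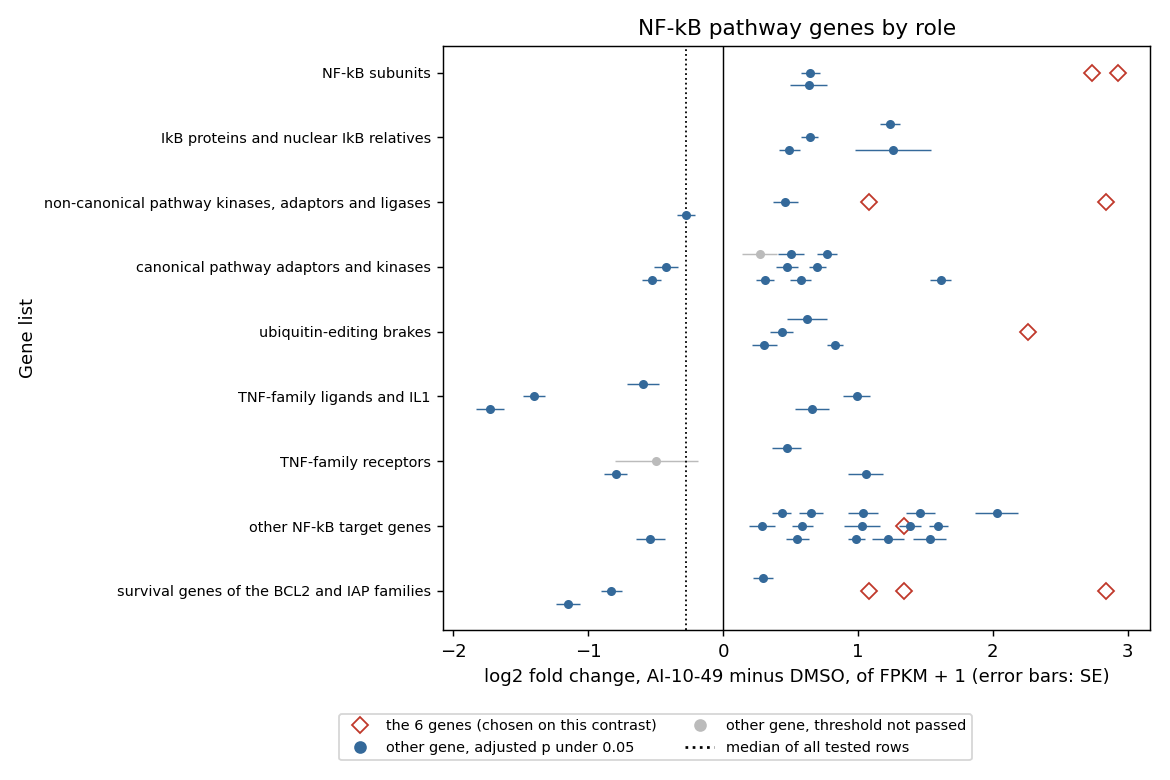
Log2 fold change (AI-10-49 minus DMSO, of FPKM + 1, with SE) of listed NF-kB pathway genes by role, filled points for genes outside the members and open diamonds for the 6 members, with genes on 2 lists drawn on both. Solid and dotted lines mark 0 and the median of all tested rows, -0.28. Brakes, IkB genes and most targets lie to the right, while ligands such as IL1B (-1.73) and LTB (-1.40) lie to the left.

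The IkB genes with a row, 4 of the 6 listed, all rose, where 46.2% of all tested rows were called higher. NFKBIA, which encodes IkB-alpha, the canonical inhibitor and a classical NF-kB target, read 208, 92.7 and 202 FPKM with AI-10-49 and 62.7, 61.2 and 72.1 FPKM with DMSO. Its log2 fold change was 1.26 ± 0.28 (SE, limma adjusted p = 0.00103), and 1.64 without AI-10-49 replicate 2, in which it read lowest of the 3. BCL3, a nuclear IkB relative that works with p50 and p52, rose by 1.23 ± 0.07 (SE), and NFKBIE and NFKBIB rose by 0.64 and 0.49. In the non-canonical complex itself TRAF3, the adaptor that holds NIK down together with the cIAPs, fell by 0.27 to 8.85 ± 0.50 FPKM with AI-10-49, against 10.9 ± 0.25 FPKM with DMSO (SD, n = 3 each; limma adjusted p = 0.00156). The median over all tested rows was -0.28, so TRAF3 changed by about as much as the middle row. TRAF3 was 0.352, 0.379 and 0.302 times as abundant as BIRC3 with AI-10-49 and 3.75, 3.87 and 4.35 times with DMSO. That ratio moved mostly with BIRC3, a member chosen on this contrast. OTUD7B, a deubiquitinase known to protect TRAF3, rose by 0.46. MAP3K14 (the NIK gene), CHUK and TRAF2 were not analysed here.

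Ligands and receptors went both ways. LTB, which encodes lymphotoxin beta, a ligand of LTBR, read 8.52, 8.45 and 8.19 FPKM with AI-10-49 and 22.5, 21.9 and 27.5 FPKM with DMSO, and fell by 1.40 ± 0.08 (SE, limma adjusted p = 7.85e-09). Its receptor gene LTBR fell by 0.80 ± 0.09 (SE), to 32.2 ± 1.44 FPKM with AI-10-49 against 56.8 ± 3.18 FPKM with DMSO (SD, n = 3 each). TNFSF13B, which encodes the ligand BAFF, fell by 0.59. IL1B, the gene of interleukin-1 beta, read 30.1, 27.5 and 32.4 FPKM with AI-10-49 and 104, 98.5 and 102 FPKM with DMSO, and fell by 1.73 ± 0.11 (SE). No library of one group reached the other in any of these 4 genes. TNFSF9 and TNFSF14, both of low level, rose by 0.99 and 0.66, values that the added 1 FPKM holds down: with 0.1 FPKM added they were 1.80 and 1.16, and the plain ratios of means were 3.96 and 2.46. Among receptors, TNFRSF1B, which encodes TNF receptor 2, rose by 1.06 and CD40 by 0.47, and TNFRSF1A, which encodes TNF receptor 1, gave -0.50 ± 0.31 (SE), short of the threshold. With AI-10-49 replicate 2 left out TNFRSF1A gave -0.21 and passed, and under quantile normalization it gave 0.084 and did not.

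Of the canonical adaptors and kinases, 10 of 19 had a row, and 7 rose, 2 fell and 1 did not pass. Over all tested rows, 46.2% were called higher and 49.1% lower. MALT1, the protease of the CARD-BCL10-MALT1 complex that can cut A20, rose most, by 1.61 ± 0.08 (SE), to 14.5 ± 0.23 FPKM with AI-10-49 against 4.08 ± 0.54 FPKM with DMSO (SD, n = 3 each; limma adjusted p = 2.19e-09). Its partner gene BCL10 rose by 0.77. IRAK4, a kinase of interleukin-1 and Toll-like receptors, rose by 0.70, the ubiquitin ligase gene TRAF6 by 0.58, the TAK1 kinase gene MAP3K7 by 0.47, and its binding partners TAB2 and TAB3 by 0.50 and 0.31. MYD88, the adaptor of the same receptors, fell by 0.53, and IRAK1 by 0.42. RBCK1, which encodes a part of the linear ubiquitin ligase, gave 0.27 ± 0.13 (SE) and did not pass, and gave 0.39 and passed without AI-10-49 replicate 2.

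Other NF-kB target genes with a row numbered 15 of 27 listed, with IL8 and CXCL8 taken as 1 gene. Of the 15, 14 rose, where 46.2% of all tested rows were called higher. The chemokine gene IL8 read 87.0, 54.0 and 94.4 FPKM with AI-10-49 and 17.3, 17.6 and 19.0 FPKM with DMSO, a rise of 2.03 ± 0.16 (SE, limma adjusted p = 1.27e-07), or 2.27 without AI-10-49 replicate 2. CD83, a surface protein of activated antigen-presenting cells, rose by 1.60, the chemokine genes CXCL2 and CXCL3 by 1.53 and 1.22, the stress gene GADD45B by 1.46 and the protease gene PLAU by 1.39. PTGS2, which encodes cyclooxygenase 2 and was of low level, rose by 1.04, or by 1.81 with 0.1 FPKM added in place of 1. The chemokine gene CCL4 rose by 1.03, and ICAM1, an adhesion gene, by 0.99, to 13.4 ± 0.04 FPKM with AI-10-49 against 6.26 ± 0.25 FPKM with DMSO (SD, n = 3 each). Smaller rises were those of TRAF1 (0.65), CCL3 (0.59), IER3 (0.55), IRF1 (0.43) and TNFAIP8 (0.29). SOD2, which encodes mitochondrial superoxide dismutase and is often used as an NF-kB target, fell by 0.54 ± 0.11 (SE), to 42.0 ± 4.53 FPKM with AI-10-49 against 61.3 ± 1.79 FPKM with DMSO (SD, n = 3 each; limma adjusted p = 0.000364). Of the 43 listed genes that had a RefSeq promoter window, 16 held the kB consensus, against 13.3% of all 27305 symbols. Both NFKB1 and NFKBIA were among the 16, as were LTB, TRAF3 and IRAK1, which fell. The lists hold known NF-kB targets, so a higher share than that of all symbols could be expected whatever the treatment did.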

How the data were processed

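Per the submitters' processing notes, the tools were Bowtie2 2.1.0, Cufflinks 2.2.0 and Cuffdiff, on build hg19. The authors deposited FPKM for 6339 rows in 6 library columns, per the file headers, with no counts. No source used here says how the rows were selected. Nearly all rows differ between the groups, which bears on how the adjusted p-values can be read. Shares, ranks, percentiles and medians over tested rows describe these rows and not all genes. Whether genes without a row are missing because they changed little was not tested.

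After adding 1 FPKM and taking log2, AI-10-49 was set against DMSO with limma 3.58.1 in R 4.3.3, by its two-sided moderated test with the trend option. The 6230 rows that averaged 1 FPKM or more with either treatment were fitted together. Benjamini-Hochberg adjustment ran over all 6230, and calls were made at 0.05. Samples were grouped by the labels, which call the experiments independent. The replicate numbers are those of the labels. The members and the gene lists were chosen with earlier results of these data known. Every listed pathway gene with a tested row was named, as were the 5 rows nearest the members' mean profile. The procedure was checked on simulated data. Alternatives were other pseudocounts, filters, scalings, models, thresholds and leaving out each library. Python 3.11.15, pandas 2.3.3 and NumPy 2.4.6 were used for shares and sequence searches, and Matplotlib 3.10.9 for plots.

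Total depth is unknown, so no counting interval is given. Between pairs of DMSO libraries and between AI-10-49 replicates 1 and 3, ratios of values below 0.5 FPKM lay within 0.08% of ratios of whole numbers up to 12 in 29.8% to 42.2% of rows at the best relative depth, against a median of 3.61% to 4.30% over all depths tried. AI-10-49 replicate 3 then had 0.947 times the depth of replicate 1, and DMSO replicates 2 and 3 had 1.05 and 1.01 times that of DMSO replicate 1. The best share was 14.7% and 15.5% for AI-10-49 replicate 2. Each pair of libraries had only 71 to 100 such low rows, and most of them did not meet this limit. Missing it does not show that a row lacked whole reads. Read counts were not rebuilt, so no count test was run.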

Additional observations from a re-analysis of the deposited data

How the results depend on the processing

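The log2 fold changes of the 6 members kept their sign in all 78 values. These came from the other pseudocounts, filters, scalings, the replicate block and the fits that left out a library. The groups of these chosen genes did not overlap, so other pseudocounts or a left-out library could not turn the sign. The filters and the block returned the values of the main fit. The kept sign therefore gives no separate support. The log2 fold changes ranged from 2.86 to 3.10 for RELB, 2.66 to 2.90 for NFKB2, 2.21 to 2.40 for TNFAIP3, 0.99 to 1.37 for BIRC2, 2.79 to 3.19 for BIRC3 and 1.24 to 1.54 for BCL2A1. RELB led on the log2(FPKM + 1) scale, and BIRC3 led with a pseudocount of 0.1 FPKM (3.19 against 3.07 for RELB) and of 0.5 FPKM (3.02 against 3.01 for RELB). Quantile normalization moved RELB to 3.10 and BIRC2 to 1.37, and the median of all rows to -0.06. For the 49 other pathway genes, 1 of 680 values lost the call, TNFAIP8 without AI-10-49 replicate 3 (0.21, adjusted p = 0.0593, limma). RBCK1 gained one under 4 settings and TNFRSF1A under 1, and TNFRSF1A alone changed sign, to 0.084 under quantile normalization. Asking in addition for a log2 fold change of at least 1 in size, which drops small changes by design, kept 836 rows (361 higher, 475 lower) and 15 pathway genes (12 higher, 3 lower). Leaving out single libraries gave 5730 to 6067 rows and 46 to 49 pathway genes. With the replicate number as a block, 6015 rows (2912 higher, 3103 lower) and 48 pathway genes (38 higher, 10 lower) were called. Deviations of same-numbered libraries correlated across rows at -0.15, 0.147 and 0.247, so the numbers were not taken to pair the samples. With no counts, the error of low values can be judged only from the replicates.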

Other observations

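The 5 rows whose profile over the 6 libraries lay nearest to the members' mean profile (Euclidean distance of centred log2(FPKM + 1)) were PMEPA1, MT1X, KRCC1, CREM and RGS13. Their distances were 0.217 to 0.273. Those of the members were 0.242 for TNFAIP3, 0.682 for NFKB2, 0.818 for BIRC3, 0.899 for RELB, 1.15 for BCL2A1 and 1.38 for BIRC2. All members but TNFAIP3 thus lay farther from the mean profile than these 5 rows, which need not resemble each member. PMEPA1, which encodes an inhibitor of TGF-beta signalling, read 34.6 ± 1.92 FPKM with AI-10-49 and 5.99 ± 0.22 FPKM with DMSO. MT1X, a metallothionein gene, read 20.9 ± 3.89 FPKM with AI-10-49 and 3.65 ± 0.25 FPKM with DMSO, and its family holds near-identical copies, so its value is uncertain. CREM, a cAMP-responsive transcription factor gene, read 30.1 ± 1.07 FPKM with AI-10-49 and 6.60 ± 0.28 FPKM with DMSO. RGS13, which encodes a brake of G-protein signalling, read 5.18 ± 0.23 FPKM with AI-10-49 and 0.303 ± 0.13 FPKM with DMSO (SD, n = 3 each throughout).

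The genes beside the members on the chromosome, taken by position as the 2 protein-coding genes on each side in GENCODE 29, did not share their size of change. Next to RELB, CLPTM1 and ZNF296 fell by 0.60 and 0.82 on the log2 scale. Next to NFKB2, GBF1 rose by 0.38 and FBXL15 fell by 0.41. IFNGR1, near TNFAIP3, rose by 0.54, with 48.3 ± 5.84 FPKM with AI-10-49 and 32.8 ± 0.44 FPKM with DMSO (SD, n = 3 each). Near BCL2A1, ZFAND6 gave 0.45 ± 0.21 (SE) and did not pass, and FAH fell by 0.27. Only BIRC2 and BIRC3 had another member beside them. The other neighbours were not analysed here.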
